A study of Linum usitatissimum with 4 samples.

Results

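The authors compared shoot-apex DNA methylation of heated flax seedlings (Linum usitatissimum, variety JRF-2) with that of untreated seedlings, and 184 cytosines passed their limits, of 1894 listings over all the treatments of the series. These 184 are all rows of the authors' 3 tables for heat against control, 1 table for each cytosine context, so no measured value was used to pick among them. Neither group received 5-azacytidine, and both were grown under a cycle of 16 h light and 8 h dark at 22 ± 2 °C. The heated group had 4 h at 40 ± 2 °C and 70% relative humidity on each of 5 days and then recovered at 22 ± 2 °C for a time that the labels do not give. All plants are labelled 21 days old, although the protocol starts the heat at 21 days, so heat and any difference in age at sampling cannot be told apart. Each group is 1 bisulfite sequencing library of shoot apices pooled from 10 seedlings, with paired reads of 150 bp, which leaves every value without a replicate error and allows no test across samples. Read depth is unknown, both for a library and for a site, and so is the number of cytosines the authors tested, so the share of tested cytosines that was listed cannot be given. The other groups of the series were given 5-azacytidine, with or without heat, and were compared with the same control library.

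In plant DNA, cytosines carry methyl groups in 3 sequence contexts, CG, CHG and CHH, in which H stands for A, C or T. CG and CHG sites are symmetric, with a cytosine on each strand, and in Arabidopsis the methyltransferases MET1 and CMT3 copy their methylation after replication. CHH sites have no partner on the other strand, and in Arabidopsis their methylation is renewed by small RNAs that guide DRM2 and by CMT2. Methylation is dense over transposable elements, where it goes with silencing. In DNA pooled from whole apices, a change in a share of the cells and a partial change in every cell cannot be told apart.

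Over the whole list, most cytosines were CHH sites with a small fall, whereas CG and CHG sites went both ways. The authors' difference is given in percentage points of methylation, read as heated minus control, an order that the tables do not state, so a site called higher or lower is higher or lower in the heated library. Of the 184 sites 39 were higher and 145 lower, and the 39 comprised 19 of 48 CG (39.6%, exact 95% binomial interval 25.8 to 54.7), 7 of 13 CHG (53.8%, 25.1 to 80.8) and 13 of 123 CHH sites (10.6%, 5.75 to 17.4). Among sites with a q-value below 0.001 the shares that were higher were 62.5% of 16 CG and 28.6% of 14 CHH sites. CHH sites were 66.8% of all listed sites and 37.8% of the 37 with a q-value below 0.001. With only the site of largest absolute difference kept from each run of neighbouring sites, 0 of 5 CHG sites were higher. All 7 CHG rises were in runs where another site had a larger difference, so that rule removed them. The median absolute difference was 12.6 points at 48 CG sites (95% interval of the median over sites 10.5 to 16.7), 12.6 points at 13 CHG sites (8.30 to 15.5) and 11.1 points at 123 CHH sites (9.80 to 11.8). These intervals are for a share or a median over listed sites, and do not cover differences between plants. They are narrower than the spread of the sites, whose absolute differences ran from 6.04 to 85.4 points at CG sites. Of all sites 68 differed by less than 10 points, 88 by 10 to 20 points, 17 by 20 to 40 points and 11 by 40 points or more. Rises and falls had medians of 11.8 points (10.4 to 14.0) and 11.1 points (10.3 to 12.0), with intervals that overlap. The smallest listed difference was 5.07 points, next to the limit of 5 points that the lists were taken to have.

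**Figure D1:**
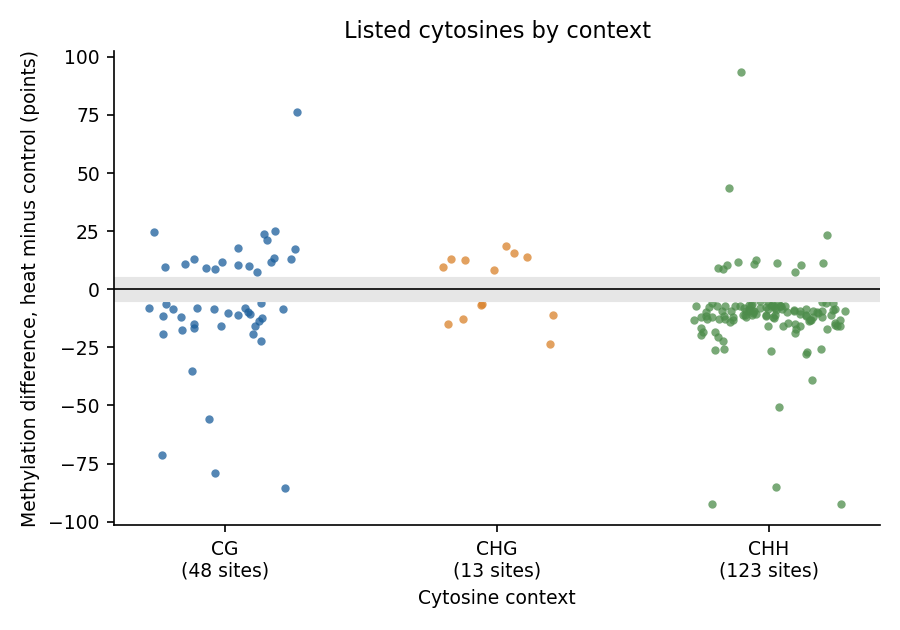
Each point is 1 listed cytosine, with the authors' methylation difference (heat minus control, in percentage points) on the vertical axis and its context on the horizontal axis; the grey band covers differences under 5 points, in which no site is listed. CHH points lie mostly below 0, with 13 of 123 above, while 19 of 48 CG and 7 of 13 CHG points lie above.

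The sites with the largest differences were not those with the smallest q-values. In the authors' deposited tables the 11 sites of 40 points or more had q-values from 0.000350 to 0.0464, with a median of 0.0258. The 13 sites with a q-value below 1e-09 differed by 12.6 to 26.6 points. None of the 11 large differences had another listed site within 100 bp, and all of the 13 sites with the smallest q-values did. Across the 184 sites Spearman's rho of absolute difference against q-value was -0.24, a description over sites of the same pair of libraries. A q-value depends on read depth and on the methylation level as well as on the size of the difference, and neither was analysed here. The 11 large differences comprised 5 CG and 6 CHH sites, 3 higher and 8 lower. Among them, the authors' deposited table lists -85.0 points 15953 bp past the start of Lus10011639, in CHH context (Lu7, 12675036, q = 0.0438). A CHH site 5249 bp downstream of the start of Lus10015602 had -50.7 points and q = 0.000350 in the authors' deposited table (Lu1, 15288037). It was the only 1 of the 11 with a q-value below 0.001. The 3 large rises in the authors' deposited tables were of 93.3 points near Lus10008384, 76.3 points near Lus10006147 and 43.6 points near Lus10008373. Larger falls than that at Lus10015602 include -92.3 points near Lus10033130, -78.9 points near Lus10002925, a PX domain gene, and -71.4 points near Lus10019377 in the authors' deposited tables. These genes' starts are 1047 to 48673 bp away.

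**Figure D2:**
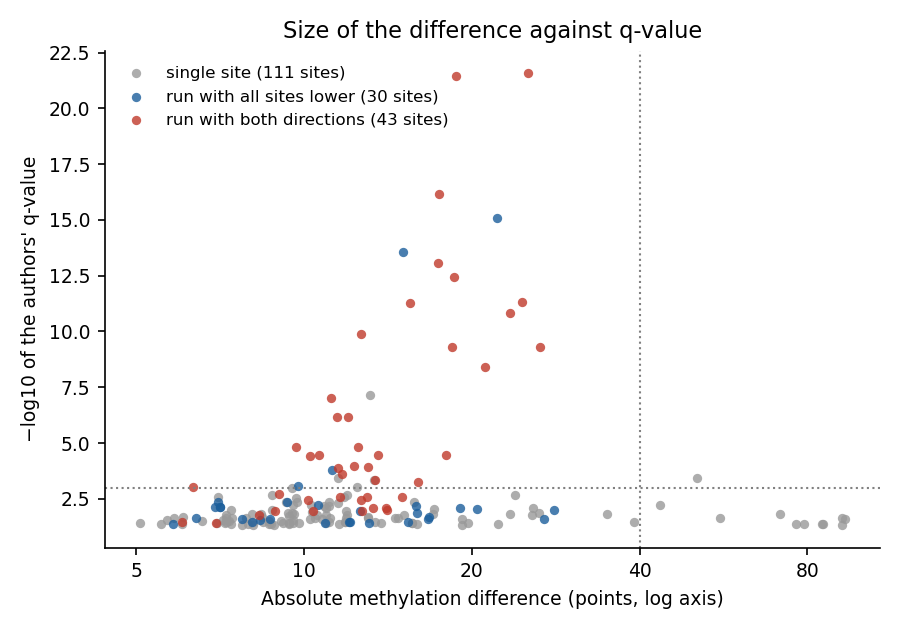
Each point is 1 listed cytosine, with the absolute methylation difference in points on a log axis against −log10 of the authors' q-value; colours mark sites alone within 100 bp, sites in runs where all were lower, and sites in runs with both directions. Dotted lines mark 40 points and a q-value of 0.001, and the 11 sites to the right of 40 points are all single, with 1 above the q-value line.

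The sites were spread unevenly over the genome. Lu13 held 31 sites, Lu3 27 and Lu14 22, together 80 of 184 or 43.5% (exact 95% binomial interval 36.2 to 51.0), and Lu11 held 0. Over all 1894 listings of the series, Lu13 held 212, Lu3 236, Lu14 124 and Lu11 53. Chromosome lengths were not used, so these counts are not densities. Rises were on 10 of the 15 chromosomes, and Lu3, Lu13 and Lu14 had 23 of the 39. On Lu8 with 9 sites, Lu1 with 4, Lu6 with 3 and Lu12 with 2, all were lower. The median distance from a site to the nearest other listed site was 321 bp, and it was 4 bp for CHG, 90.5 bp for CG and 826 bp for CHH sites. By contrast, 45 sites, of which 36 were CHH, had no other listed site within 100000 bp.

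**Figure D3:**
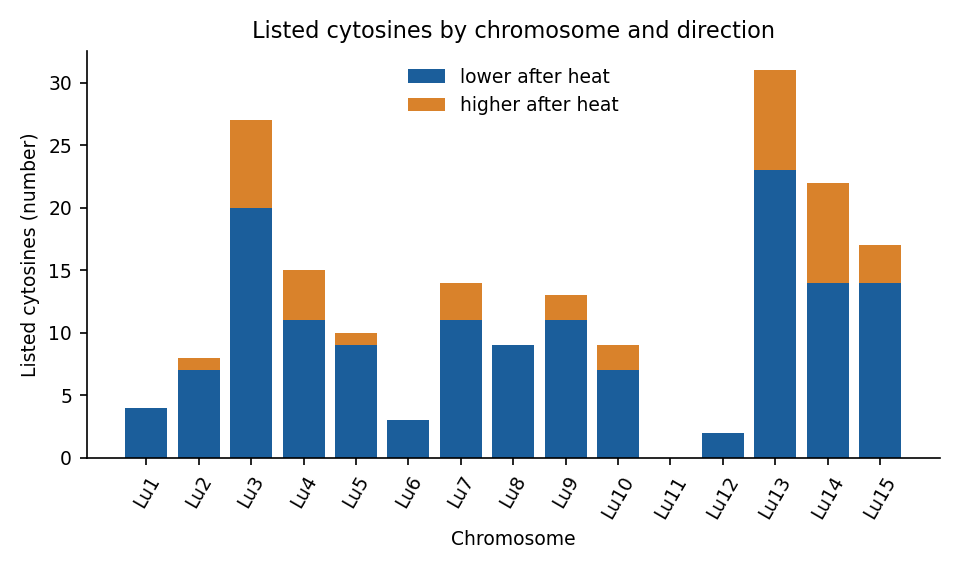
Bars give the number of listed cytosines on each of the 15 chromosomes, split into sites lower and higher in the heated library. Lu13, Lu3 and Lu14 have the tallest bars, at 31, 27 and 22 sites, and Lu11 has none.

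Rises gathered in short runs, and each of those runs also held falls. A run was taken as 2 or more listed sites, of any context, with at most 100 bp from each to the next. There were 24 runs with 73 sites (39.7%, 32.6 to 47.1), and 111 sites stood alone. With q-values below 0.001 alone, 78.4% of 37 sites were in runs. Of CHG sites 11 of 13 were in runs (84.6%, 54.6 to 98.1), of CG sites 24 of 48 (50%, 35.2 to 64.8) and of CHH sites 38 of 123 (30.9%, 22.9 to 39.9). In 15 runs all sites were lower, in 9 runs both directions occurred, and in 0 runs all sites were higher. Over the whole list 39 of 184 sites were higher, so runs of rises alone would be few in any case. Of the 39 rises 23 were in runs (59.0%, 42.1 to 74.4), all of them in runs of both directions, against 50 of the 145 falls (34.5%, 26.8 to 42.8). Among single sites 16 of 111 were higher (14.4%, 8.47 to 22.4), with 9 of 24 CG, 0 of 2 CHG and 7 of 85 CHH sites. The intervals treat sites as separate units although neighbours may share reads, and context and direction go together in these counts.

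Within runs, a site went the same way as its neighbour at some steps and the opposite way at others. All 6 runs of 3 or more sites had both directions, whereas 3 of the 18 runs of 2 did. A longer run has more sites at which both directions can occur, so this contrast depends on run length. Within the 6 longer runs, direction switched at 18 of the 31 steps from a site to the next. Over all 24 runs it switched at 21 of 49 steps, so neighbours in a run more often went the same way. Whether the order within a run departs from its mix of rises and falls was not tested. Of the 12 neighbouring pairs of sites at most 5 bp apart, 7 had opposite directions. At 1 bp apart, 2 of 3 pairs did. The runs of both directions also held most of the small q-values, with 28 of the 37 sites below 0.001. Their median q-value was 0.000106, against 0.0120 in the runs where all sites were lower and 0.0226 at single sites. In the 9 runs of both directions 10 of 17 CG, 7 of 9 CHG and 6 of 17 CHH sites were higher.

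**Figure D4:**
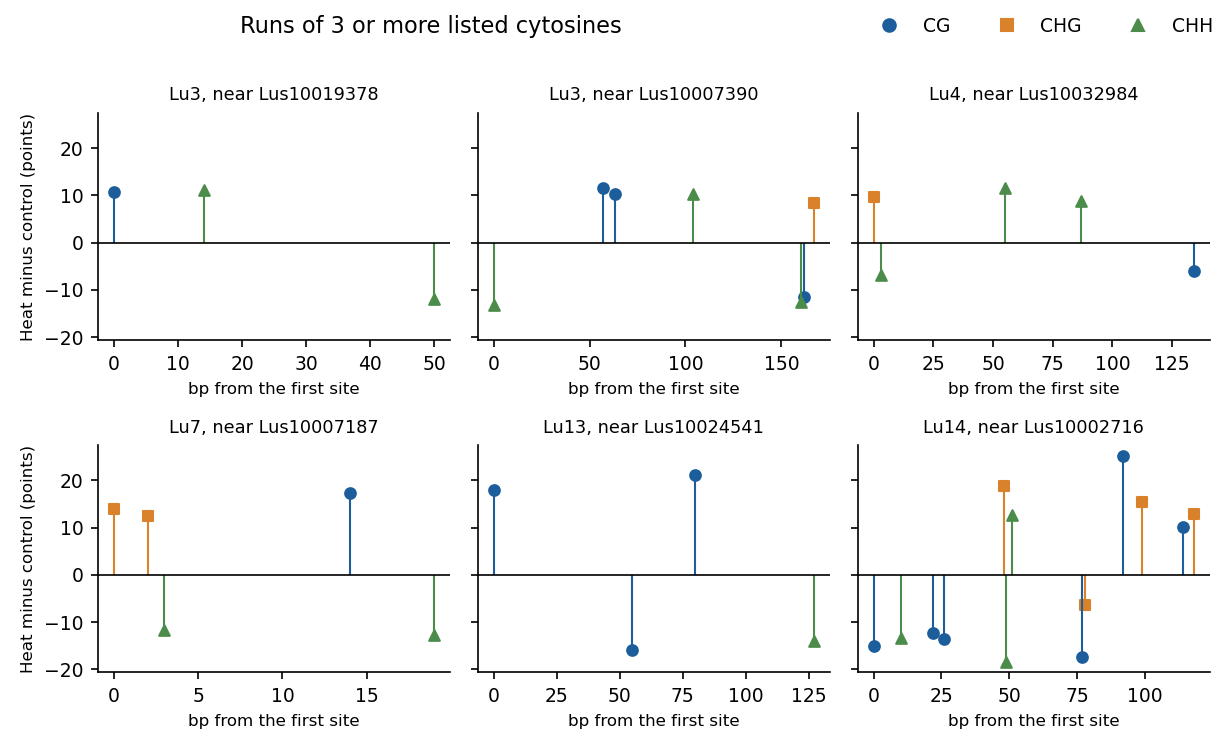
Each panel is 1 of the 6 runs with 3 or more listed cytosines, with the distance from its first site in bp on the horizontal axis and the authors' methylation difference in points on the vertical axis; markers give the context. Every panel has sites above and below 0, and the Lu14 run is the longest by number, with 13 sites.

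The run with the most sites lay on Lu14 between the starts of Lus10002716, which has no family description, and Lus10002717, described as a serine/threonine protein kinase, an enzyme that adds phosphate to proteins. The distances in the authors' tables imply that these genes point away from each other, with starts at 8137011 and 8138343, 1332 bp apart. Between them lay 14 listed sites, 7 CG, 4 CHG and 3 CHH, of which 6 were higher and 8 lower. The site nearest to a start was a CG site 82 bp upstream of Lus10002716, with -8.11 points in the authors' deposited table. The next 4 sites, 570 to 596 bp upstream of that start, were all lower, and their values in the authors' deposited tables were -15.0, -13.4, -12.3 and -13.6 points.

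Direction then alternated over a few bases. At 618 bp upstream of Lus10002716 the authors' deposited table has a CHG site with 18.7 points (q = 3.57e-22), and at 619 bp a CHH site with -18.5 points (q = 4.75e-10). At 621 bp another CHH site was higher, by 12.6 points in the authors' deposited table. Neighbouring cytosines thus differed in direction by similar amounts. At 647 bp a CG site had -17.5 points, and at 648 bp a CHG site had -6.33 points, both in the authors' deposited tables. The CG site at 662 bp had 25.2 points in the authors' deposited table (8137673), with q = 2.71e-22, the smallest of the heat lists. The 3 sites beyond it were all higher, at 15.5, 10.2 and 13.0 points in the authors' deposited tables. They are listed under Lus10002717, at 664, 649 and 645 bp upstream, so the split between the genes follows the midpoint of the interval.

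Several of these cytosines are also listed for the other treatments, against the same control library. The authors' deposited tables give the CG site at 662 bp 20.3 points for 5-azacytidine and 15.3 points for 5-azacytidine plus heat, beside 25.2 points for heat. For the CHG site at 618 bp the authors' deposited tables give 18.9 and 12.1 points, beside 18.7 points for heat. The CHH site at 619 bp has -22.7 and -18.3 points in the authors' deposited tables, beside -18.5 points. At the CG site at 647 bp the authors' deposited tables have -17.0 and -20.4 points, beside -17.5 points. Since all 3 comparisons use 1 control library, values of the same sign in them are not separate observations.

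**Figure D5:**
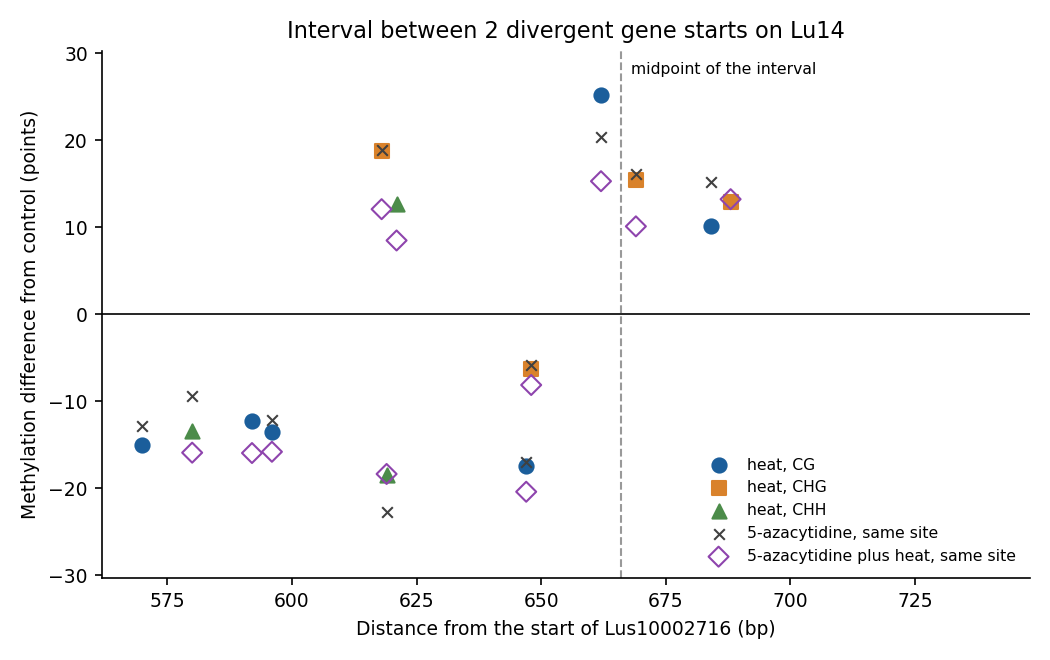
Listed cytosines in the interval on Lu14, with the distance from the start of Lus10002716 in bp on the horizontal axis and the authors' methylation difference from the control library in points on the vertical axis; filled markers are heat by context, and crosses and open diamonds are the same cytosines where the authors list them for 5-azacytidine and for 5-azacytidine plus heat. The 4 heat sites at 570 to 596 bp are lower and the 4 at 662 bp and beyond are higher; the site at 82 bp lies outside the plotted range.

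On Lu3 a run of 7 sites within 167 bp lay 3282 to 3115 bp upstream of Lus10007390, described as related to bifunctional nuclease 1. Its 2 CG sites at 3225 and 3219 bp upstream were higher, with 11.5 and 10.4 points in the authors' deposited table, as was the CHH site at 3178 bp with 10.3 points. The CHH sites at 3282 and 3122 bp were lower, with -13.3 and -12.6 points in the authors' deposited table. At 3120 bp upstream a CG site was lower (-11.6 points) and 5 bp on a CHG site was higher (8.30 points), both in the authors' deposited tables. Rises and falls in this run were thus of like size. A further run on Lu3 lay 36175 to 36125 bp upstream of Lus10019378, with 10.7 points at a CG site and 11.2 and -12.0 points at CHH sites in the authors' deposited tables.

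On Lu7 a run of 5 sites spanned 19 bp, 1135 to 1154 bp upstream of the gene that 4 of its 5 rows identify as Lus10007187, which has no family description. Its CHG sites at 12209893 and 12209895 had 14.0 and 12.5 points in the authors' deposited table, and its CG site at 12209907 had 17.4 points (q = 8.49e-14). The CHH sites at 12209896 and 12209912 went the other way, with -11.7 and -12.7 points in the authors' deposited table. In this run all CG and CHG sites were higher and both CHH sites lower. Those CHG sites are 2 bp apart, the spacing of a CHG cytosine and its partner on the opposite strand.

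On Lu4 a run of 5 sites lay 18132 to 18266 bp downstream of the start of Lus10032984, described as TCP13, a transcription factor of a family that shapes leaf growth in Arabidopsis. Its CHG site showed 9.65 points and a CHH site 3 bp on -6.96 points in the authors' deposited tables. The other CHH sites had 11.5 and 8.86 points and the CG site -6.04 points in the authors' deposited tables. On Lu2 a CHH site with 9.01 points and a CHG site with -23.5 points lay 3 bp apart in the authors' deposited tables, 10065 and 10062 bp before the start of Lus10002410, whose family (soluble NSF attachment protein) takes part in vesicle fusion. On Lu10 a CG site at 5825292 had 13.0 points and a CHH site 12 bp on had -26.6 points in the authors' deposited tables. The identifiers of the gene nearest to this pair do not match 1 to 1 across tables, so it is given by position.

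The long stretch between Lus10024541 and Lus10024540 on Lu13 held the most sites of any interval. These genes, neither with a family description, point away from each other with implied starts 69694 bp apart, and 22 sites lay between, 7 higher and 15 lower. Nearest to Lus10024541, 1817 to 2105 bp upstream, 3 CG sites were higher, with 18.0, 21.1 and 24.6 points in the authors' deposited table, while the CG site at 1872 bp had -16.0 points. The CHH sites at 1944 and 2090 bp upstream of Lus10024541 were lower, at -14.1 and -18.5 points in the authors' deposited table. Farther out, the 11 sites listed under Lus10024540, 11554 to 24288 bp upstream, were 3 higher and 8 lower. Among those 11 the values in the authors' deposited tables ran from -26.3 to 23.4 points, both at CHH sites. A similar interval of 87452 bp on Lu3, between Lus10019377 and Lus10019378, held 10 sites. Its 6 sites near Lus10019377, described as LAP3, which acts in pollen wall formation in Arabidopsis, were all lower, 25241 to 40822 bp upstream of its start. Of the 4 near Lus10019378, 3 were higher. Together the 3 intervals between divergent starts on Lu14, Lu13 and Lu3 held 46 sites (25% of the list), 16 of the 39 rises and 20 of the 37 sites with a q-value below 0.001. These intervals were chosen after their values were seen.

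In the 15 runs where all sites were lower, each of 2 sites, the smallest fall was of 5.81 points. The largest falls among them were the pair near Lus10008833, a Yippee-type zinc-binding protein gene, and the lesser of that pair was -26.9 points in the authors' deposited table. The smallest q-value among them was at a CG site 5054 bp upstream of Lus10008011, where the authors' deposited table gives -22.2 points and q = 7.84e-16; a CG site 7 bp away had -11.2 points. Near the cell division protein kinase gene Lus10002469, a CHG site 13184 bp upstream had -15.0 points (q = 2.69e-14) in the authors' deposited table. Its CG neighbour 13159 bp upstream fell less, at -8.35 points in the authors' deposited table. Both a CHG and a CG site 11230 and 11259 bp upstream of Lus10004082 had -12.6 and -12.1 points in the authors' deposited tables.

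Cytosines of the same symmetric site were seldom listed together. Among the 48 CG sites 0 had a listed CG site 1 bp away, where the partner on the other strand would lie, an exact 95% upper limit of 7.40%. The only partner-spaced CHG pair was the 1 on Lu7 near Lus10007187, 2 of 13 CHG sites, and both its cytosines were higher. In the lists for 5-azacytidine and for 5-azacytidine plus heat, 8 of 64 and 8 of 101 CG sites had a partner listed, and the difference from heat was not tested. For 5-azacytidine plus heat, spacings that are not those of partners were as frequent, with 8, 7 and 10 of 101 CG sites at 2, 3 and 4 bp, whereas for 5-azacytidine they held 0 of 64. Of CHG sites, 12 of 47 and 4 of 25 had a partner listed in those lists. A partner that is not listed may have missed the authors' limits or had too few reads, and is not shown to be unchanged.

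The listed sites lay mostly upstream of the nearest gene start and often far from it. By the authors' annotation 126 of the 184 sites were upstream (68.5%, 61.2 to 75.1), with 38 of 48 CG, 12 of 13 CHG and 76 of 123 CHH sites. Among the upstream sites, the 46 in the 3 intervals between divergent starts are upstream by position, whichever start is nearer. The upstream share of all tested cytosines is unknown. The median distance was 6704.5 bp, and 73 sites were more than 10000 bp away. Within 2000 bp of a start lay 45 sites (24.5%, 18.4 to 31.3), and of the 22 within 1000 bp 14 were in the Lu14 interval. Without that interval 18.2% of 170 sites lay within 2000 bp. Among the 37 sites with a q-value below 0.001 the share within 2000 bp was 45.9%, and most of those near sites were in the Lu14 interval. Upstream sites were higher in 32 of 126 cases (25.4%, 18.1 to 33.9) and downstream sites in 7 of 58 (12.1%, 4.99 to 23.3), with intervals that overlap. Whether a site lies in an exon, an intron or a repeat was not analysed here, and the nearest gene start implies no link to that gene.

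The Lu14 interval held all 6 rises within 1000 bp of a start, and the 8 sites outside it were lower. Over all listed sites 145 of 184 were lower. Upstream of Lus10036720, related to S-2-hydroxy-acid oxidase, an enzyme family that includes the glycolate oxidase of photorespiration, a CHH site at 480 bp had -8.70 points and a CG site at 510 bp had -6.40 points in the authors' deposited tables. For Lus10015736, an HNH endonuclease gene, the authors' deposited table has -92.3 points (q = 0.0464) at a CHH cytosine 753 bp past the start. The same cytosine has -76.5 points for 5-azacytidine plus heat in the authors' deposited table. A CHH site 972 bp downstream of the start of Lus10015447, related to a low-temperature viability protein, is given -8.77 points by the authors' deposited table. At Lus10000801, a SCAN domain zinc finger gene, the CHH site 558 bp downstream had -9.80 points in the authors' deposited table. The others were at Lus10019181, Lus10008011 and Lus10002716, which have no family description, at -11.9, -11.8 and -8.05 points in the authors' deposited tables.

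The 184 sites were assigned to 93 nearest genes, of which 57 had 1 site and 14 had 3 or more. Of the 36 genes with at least 2 sites, all sites were lower at 23, all were higher at 1, Lus10002717, and both directions occurred at 12. Of those 36 genes 22 had only 2 sites, and over the whole list 145 of 184 sites were lower. Lus10006013 on Lu5 had 6 sites, all lower, at -7.06 to -13.4 points in the authors' deposited tables, 15236 to 25761 bp downstream of its start. All 3 sites of Lus10010175, related to the RNA helicase SDE3, which acts in RNA silencing in Arabidopsis, were lower, at -7.88, -7.72 and -10.9 points in the authors' deposited tables. Lus10013917, described as a sterol regulatory element-binding protein, also had 3 sites, all lower, at -10.8, -7.06 and -6.92 points in the authors' deposited tables. Near Lus10009768, a gene with a domain of unknown function, 3 of 4 sites were lower, and the CG site 34860 bp upstream was higher, with 13.1 points (q = 6.87e-08) in the authors' deposited table.

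Family descriptions were present for 61 of the 93 genes, and word lists were matched to them. Over all 184 sites, 39 were higher and 145 lower with a median of -9.56 points, and each list is given beside that. No description matched the words for heat shock proteins and chaperones, protein turnover, the cell wall or transposable elements, so these lists had 0 sites. That 0 depends on the words chosen, and the remaining genes had no description. Lus10036315, a chitinase-like gene, of a family with members that act in cell wall formation in Arabidopsis, was not matched, nor was LAP3. The CHH sites of Lus10036315, 6810 and 6599 bp upstream, were both lower, at -11.0 and -6.96 points in the authors' deposited table.

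The word list for DNA methylation and chromatin matched 6 sites at 3 genes, all lower, with a median of -10.3 points. Its members were the SDE3-related helicase gene, a DNA helicase gene and Lus10041695, described as a DNA oxidative demethylase. That name is used for AlkB-type enzymes that repair alkylated bases. All 3 genes matched by the words helicase or demethylase, and no description named a DNA methyltransferase, a histone or chromatin. The CG site 2071 bp upstream of Lus10041695 had -55.8 points (q = 0.0233) in the authors' deposited table. The CHH sites of Lus10002973, the DNA helicase gene, had -9.75 and -20.4 points in the authors' deposited table.

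Transport genes had 5 sites at 4 genes, all lower, with a median of -16.0 points. Lus10008263, described as a lysine histidine transporter, had -39.2 points at a CHH site 5569 bp upstream in the authors' deposited table. Lus10001656, related to the sugar transporter ERD6-like 4, had -16.0 and -16.7 points at CG sites in the authors' deposited table. A CHH site near Lus10004317, related to the metal transporter NRAMP2, had -15.9 points in the authors' deposited table. The CHH site 12779 bp downstream of the start of Lus10004896, an ABC transporter of the C family, had -7.42 points in the authors' deposited table. The 3 membrane traffic sites comprised the pair near Lus10002410 and a CG site near Lus10003641, a clathrin coat assembly gene, with -35.0 points in the authors' deposited table.

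Signalling genes had 11 sites at 6 genes, 4 higher and 7 lower, with a median of -11.1 points, and 3 of the 4 rises were those of Lus10002717 in the Lu14 interval. The other rise was at a CG site 7863 bp upstream of Lus10041426, of the protein kinase family, with 23.9 points in the authors' deposited table. Of the falls, CHH sites near Lus10008761, a protein phosphatase gene, had -15.9 and -19.0 points in the authors' deposited table. Those near Lus10034637, related to protein kinases, had -13.0 and -15.4 points, and that near Lus10021580, of the protein kinase family, -11.1 points. The falls near Lus10002469 are given above. The word list for transcription factors matched 8 sites at 4 genes, 4 higher and 4 lower, and 5 of the 8 were the run near TCP13. Among the rest, Lus10039989, a PLATZ factor, had 11.0 points and Lus10032848, related to the zinc finger protein AZF3, had -19.7 points in the authors' deposited table. The words missed other families of transcription factors, named here after their values were seen, so the even split holds for the matched genes alone. Among those missed, the sterol regulatory element-binding protein gene Lus10013917 had 3 lower sites, as given above. Lus10014786, of the GRAS family, had -5.07 and -6.03 points and Lus10008374, of the YABBY family, had 7.23 points in the authors' deposited table. Redox genes had 6 sites at 5 genes, 1 higher and 5 lower, with a median of -8.89 points. All 5 genes matched by the words dehydrogenase, oxidase or oxidoreductase, so these counts depend on the words chosen. The rise among them was at Lus10010288, of the NADH-ubiquinone oxidoreductase family, with 9.51 points at a CG site 1111 bp upstream in the authors' deposited table. The falls were those of Lus10036720, given above, and CHH sites near Lus10001964, Lus10040183 and Lus10015949. These CHH sites had -9.07, -9.37 and -11.9 points in the authors' deposited table. The genes are described as an inosine monophosphate dehydrogenase, a peroxisomal acyl-coenzyme A oxidase and a glyoxal oxidase. The hormone list had 1 site, a CG site 9872 bp upstream of Lus10016846, a two-component response regulator gene of the kind that acts in cytokinin signalling, with -85.4 points (q = 0.0430) in the authors' deposited table.

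The remaining cytosines that the authors list for all 3 treatments, against the shared control, are given here in the order heat, 5-azacytidine, 5-azacytidine plus heat. Outside the runs, the site near Lus10019181 had -11.9, -11.7 and -10.9 points in the authors' deposited tables. Near Lus10003996, described as a meiotic recombination protein of the SPO11 kind, which makes the breaks that start meiotic recombination, the authors' deposited tables give -10.9, -13.2 and -14.9 points. For the CHH site 1500 bp upstream of Lus10025047, a pentatricopeptide repeat gene, the authors' deposited tables have -11.1, -10.4 and -15.9 points. The CG site near Lus10009854 was higher, with 11.8, 15.6 and 11.8 points in the authors' deposited tables. It was the only rise among these cytosines outside the runs. In the authors' deposited tables, the site near Lus10007981, a nucleotide diphosphatase gene, had -11.9, -11.7 and -9.80 points, and the site near Lus10012651 had -9.18, -8.68 and -11.3 points. For Lus10004896, the ABC transporter gene, the authors' deposited tables give -7.42, -9.21 and -9.79 points. Near Lus10035676, a gene for a ROP guanine nucleotide exchange factor, which activates small GTPases, they were -9.38, -9.11 and -9.19 points in the authors' deposited tables. The site downstream of the start of Lus10002716 had -8.05, -7.80 and -8.53 points in the authors' deposited tables.

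Genes with several listed sites held further such cytosines. Near Lus10019377 the authors' deposited tables give -8.71, -8.98 and -8.21 points at 25241 bp upstream and -9.56, -8.95 and -11.5 points at 38151 bp. Near Lus10024540 they give -9.58, -8.83 and -8.98 points at 22301 bp and -11.1, -11.5 and -10.9 points at 11554 bp in the authors' deposited tables. The sites 35120 and 29892 bp upstream of Lus10009768 had -10.5, -11.7 and -9.49 points and -13.0, -11.8 and -12.5 points in the authors' deposited tables. All of these were lower under each treatment.

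Within runs both directions occurred. The CG sites 1817 and 1897 bp upstream of Lus10024541 were higher, with 18.0, 14.2 and 18.7 points and 21.1, 15.4 and 19.2 points in the authors' deposited tables. So was the CHH site 3178 bp upstream of Lus10007390, with 10.3, 6.56 and 8.63 points in the authors' deposited tables. The CHH site at 5825304 on Lu10 was lower, with -26.6, -23.2 and -23.8 points in the authors' deposited tables. A CHH site near Lus10017173 had -16.8, -17.1 and -16.2 points, and the CHH site 1154 bp upstream of Lus10007187 had -12.7, -11.4 and -14.3 points in the authors' deposited tables. The CHH site 18135 bp downstream of the start of Lus10032984 had -6.96, -6.81 and -7.31 points in the authors' deposited tables. In the Lu14 interval, beside those described above, the sites 580 and 596 bp upstream of Lus10002716 had -13.4, -9.41 and -15.9 points and -13.6, -12.1 and -15.8 points in the authors' deposited tables. The CHG site at 648 bp had -6.33, -5.85 and -8.13 points, and the CHG site 664 bp upstream of Lus10002717 had 15.5, 16.2 and 10.1 points in the authors' deposited tables.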

How the data were processed

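DNA methylation was measured by whole-genome bisulfite sequencing, with 1 pooled library per group. Per the submitters' processing notes, Trimmomatic, FastQC, BWA, MethylDackel and methylKit were used; their versions, and the build, are not given in the sources used here. For each listed cytosine the deposited tables hold the authors' p-value and q-value, a methylation difference (a score in percentage points) and the distance to the nearest gene start in bp. Their largest q-value is 0.0482 and smallest absolute difference 5.07 points. The sign was read as treated minus control, the usual methylKit order, which the tables do not state; if it is the other way, higher and lower swap. Positions are the deposited starts and may be off by 1 bp. The strand column differed between tables at 47 of 84 repeated cytosines and was not used. Of value columns, 0 were left out for lack of a matching sample.

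Runs, shares, medians and exact Clopper-Pearson 95% intervals, which cover counting of listed sites only, were computed with Python 3.11.15, numpy 2.4.6, pandas 2.3.3 and SciPy 1.17.1, and the run script was checked on simulated data. Read depth is unknown, and the authors' p-values compare 1 pooled library with another. Sites and word lists were chosen with earlier results of these data known. Named were runs and genes with 3 or more sites, strand pairs, the largest differences and smallest q-values, described genes within 1000 bp, list members and cytosines listed for all treatments. Alternatives changed the limits on q-value, difference, run gap and distance. Those without the Lu14 interval, and those on rises in runs, were chosen after seeing the data. For 2 genes, identifiers were not the same in all rows.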

Additional observations from a re-analysis of the deposited data

How the results depend on the processing

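Of 43 recomputed values of 12 results, 29 stayed within the counting interval and 14 did not. With sites of q-value below 0.001 alone, 62.5% of CG and 28.6% of CHH sites were higher, the CHH median was 12.2 points, CHH sites were 37.8% of the list, 78.4% of sites were in runs and 45.9% lay near a gene start. With differences of at least 20 points, 18.8% of CHH sites and 0% of CHG sites (of 1) were higher. With 1 site per run, that of largest absolute difference, 0% of 5 CHG sites were higher. By the same rule 17.0% of sites lay near a start, against 18.2% without the Lu14 interval. Within 1000 and 5000 bp, 12.0% and 42.9% did. A run gap of 500 bp put 53.3% of sites in runs. A narrower or wider distance limit can only lower or raise the share near a start, and a longer gap can only raise the share in runs. Keeping 1 site per run removed every CHG rise, as described above. Most of the near sites with a q-value below 0.001 were in the Lu14 interval. The cause of the other shifts was not tested. No paired analysis was possible because each group has 1 library, and for the same reason no replicate could be left out. Unknown depth limits every value: a cytosine that is not listed may have had too few reads.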
